A study of Mus musculus with 104 samples.

Results

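A set of 10 genes known from the fibroblasts of the meninges, Col1a1, Col1a2, Col3a1, Dcn, Lum, Ogn, Aebp1, Mgp, Igf2 and Slc6a13, was followed through bulk RNA-seq of mouse cerebral cortex. The set was given as a list, and all 10 genes were found among the 24060 genes of the RefSeq count table. All 10 passed the filter on low counts, which kept 15723 genes for testing. The libraries came from 52 female and 52 male wild type C57BL/6 mice at 6 months of age. In each of 13 lines there were 4 females and 4 males, and the lines were Morf4l1, Hrk, Zswim6, Tbc1d8, Rgs9, Rasgef1a, Ppp1ca, Pcdh20, Kdm3b, Gsg1l, Ece2, Dach1 and Arpp19. The labels give the line under a batch tag, so that whatever else differed between these cohorts of wild type mice cannot be told apart from the line. No mouse carried a labelled mutation or treatment, and 1 mouse stood behind each library as far as the labels say.

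The meninges are the membranes around the brain. Their fibroblasts lay down fibrillar collagens and small leucine-rich proteoglycans, which coat collagen fibrils and set their spacing, and arachnoid barrier cells and pial fibroblasts carry transporters that move amino acids and organic anions between blood, cerebrospinal fluid and brain. In the cortex such cells are found at the pial surface and in the sheaths around vessels that dip in from it, while neurons and glia make little of these products. In bulk tissue, fewer such cells and less RNA per cell cannot be told apart, and the labels do not say how much meninx stayed on each piece.

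The coding sequence of the 3 collagens shows the repeat that defines this class of product. A triple helix needs glycine once in each Gly-X-Y triplet of residues, and the longest unbroken run of such triplets held 338 triplets of the 1453 codons of Col1a1, 339 of the 1372 codons of Col1a2 and 344 of the 1464 codons of Col3a1 (GENCODE vM21 transcripts, GRCm38). The first 60 bases of each run are given 5′ to 3′, with the first codon of each triplet, always a glycine codon, in capitals. Glycine codons at the other positions of a triplet are in lower case.
Col1a1: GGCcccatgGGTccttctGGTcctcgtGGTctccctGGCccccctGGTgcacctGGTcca
Col1a2: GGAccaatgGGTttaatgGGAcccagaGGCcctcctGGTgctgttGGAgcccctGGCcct
Col3a1: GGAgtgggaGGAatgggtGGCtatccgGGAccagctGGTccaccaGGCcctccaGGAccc
The runs make up 69.8% of the Col1a1 codons, 74.1% of those of Col1a2 and 70.5% of those of Col3a1, and they start at codons 168, 97 and 164 counted from the start codon.

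Because the 10 genes varied together (described further on), the promoters of the 4 members with a single RefSeq start are shown as the 120 bases before it, 5′ to 3′ on the + strand of GRCm38.p6. Capitals mark matches, on either strand, to 3 promoter motifs, the TATA box searched by the letters TATAAA, the CCAAT box by those of its name and the GC box by the letters GGGCGG. No matches overlapped one another.
Col1a2 (chr6:4505498-4505617): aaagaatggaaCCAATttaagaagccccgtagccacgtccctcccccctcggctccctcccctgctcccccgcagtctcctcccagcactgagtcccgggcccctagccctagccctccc
Col3a1 (chr1:45311418-45311537): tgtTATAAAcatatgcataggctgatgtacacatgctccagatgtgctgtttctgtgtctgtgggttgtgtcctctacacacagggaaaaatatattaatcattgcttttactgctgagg
Ogn (chr13:49607895-49608014): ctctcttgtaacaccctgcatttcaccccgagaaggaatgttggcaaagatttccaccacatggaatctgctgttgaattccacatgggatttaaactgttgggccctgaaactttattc
Aebp1 (chr11:5861746-5861865): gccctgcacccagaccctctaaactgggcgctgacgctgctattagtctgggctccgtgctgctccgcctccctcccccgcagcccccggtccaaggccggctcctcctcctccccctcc
Over the full 250 bases before the start, Col1a2 held 1 CCAAT match and 2 GGGCGG matches, Col3a1 1 TATAAA match and Ogn 2 TATAAA matches, and Aebp1 held none of the 3. Of all 32851 RefSeq windows of this length, 12.4% held TATAAA, 33.8% CCAAT and 32.7% GGGCGG. No single one of these motifs was in all 4 promoters. Igf2 and Slc6a13 have 4 and 3 such windows and are not printed.

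The genes lie at 10 separate places on GRCm38.p6. Col1a2, Slc6a13 and Mgp are on chromosome 6 (4505618 to 4541543, 121300288 to 121337721 and 136872435 to 136875823). Col1a1 and Aebp1 are on chromosome 11 (94936224 to 94953042 and 5861866 to 5872248). Dcn (97479500 to 97518163) and Lum (97565501 to 97572703) are neighbours on chromosome 10, 47.3 kb apart. Col3a1 is on chromosome 1 (45311538 to 45349706), Igf2 on chromosome 7 (142650768 to 142666816) and Ogn on chromosome 13 (49608015 to 49624501). Of them, 3 overlap other annotated genes, and the sources used here do not say whether reads were counted by strand. Ogn lies wholly inside the span of Cenpp, Aebp1 shares 69 bases with Pold2, and Igf2 shares 7137 bases with the antisense RNA Igf2os. The overlapping genes did not follow the group: across the libraries Cenpp correlated with the mean of the 10 genes at r = -0.054 and Pold2 at 0.112, while Igf2os averaged 0.0317 FPKM and did not pass the filter.

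One library, Kdm3b female replicate 22, held 3.389 M reads assigned to genes (M, reads in units of 1000000), and the other 103 held 23.93 to 33.49 M. Reads of the Y chromosome or of Xist went against the sex label in 3 libraries, Rasgef1a female replicate 39, Rasgef1a male replicate 40 and Rgs9 female replicate 43. In Rasgef1a female replicate 39 only Xist did so, with 2 reads, while its Y reads were 0 as in a female. The 3 libraries were kept under their labels, and each test was repeated without them. The tissue label held: excitatory and pan-neuronal genes summed to 4910 to 5730 FPKM, with Slc17a7, the vesicular glutamate transporter of cortical neurons, at 427 to 539 FPKM.

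Measured per length, the group was a minor part of each library. The 10 genes summed to 41.2 FPKM at the median, with 18.1 FPKM in the lowest library and 70.8 FPKM in the highest. Mgp, the secreted inhibitor of calcification, was the highest at 16.62 ± 4.78 FPKM (SD over all libraries), followed by Igf2, the insulin-like growth factor of fetal growth that meninges and choroid plexus go on making in the adult, at 8.489 ± 2.431 FPKM. Dcn averaged 3.726 ± 0.874, Aebp1 3.389 ± 0.988, Slc6a13 2.881 ± 0.843, Col1a2 2.114 ± 0.570 and Ogn 2.021 ± 0.738 FPKM. Col1a1 at 1.033 ± 0.305, Lum at 0.925 ± 0.217 and Col3a1 at 0.282 ± 0.090 FPKM closed the order. The gap between neighbours was larger than the SD of either gene for Mgp over Igf2, Igf2 over Dcn, Ogn over Col1a1 and Lum over Col3a1, and smaller than the larger SD for the other neighbours.

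Library to library, every member varied several-fold in TMM-adjusted counts per 1000000 reads (CPM). Among the fibrillar collagens, Col1a1, the major chain of type I collagen, ran from 2.334 to 10.29 CPM with a median of 4.618 CPM. Col1a2, its partner chain, ran from 4.551 to 20.83 CPM with a median of 11.13 CPM. Col3a1, the type III chain of compliant tissue, ran from 0.494 to 3.037 CPM with a median of 1.539 CPM. The highest library was thus 4.41 times the lowest for Col1a1, 4.58 times for Col1a2 and 6.15 times for Col3a1. Morf4l1 male replicate 28 was the highest for both type I chains, while the highest for Col3a1 was Morf4l1 female replicate 26. Col3a1 was counted with 7 to 99 reads a library, and counting error alone made up 25.7% of its variance on the log scale, against 10.1% for Col1a1 and 4.42% for Col1a2.

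The small leucine-rich proteoglycans covered the narrowest and the widest range of the group. Dcn, which binds collagen fibrils and growth factors, ran from 3.334 to 11.93 CPM (median 7.752 CPM), and Lum, a keratan sulfate proteoglycan, from 0.889 to 2.854 CPM (median 1.932 CPM). Rasgef1a female replicate 37 was the highest library and Gsg1l female replicate 16 the lowest for both of these neighbouring genes. Ogn, also called osteoglycin or mimecan, ran from 1.148 to 10.04 CPM with a median of 5.216 CPM. That is a ratio of 8.74 between the extreme libraries for Ogn, against 3.58 for Dcn and 3.21 for Lum. Counting error made up 35.9% of the variance of Lum, the largest such share in the group, and 5.14% of that of Ogn.

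The remaining members also varied several-fold. Aebp1, a secreted collagen-binding protein of connective tissue, ran from 5.853 to 24.77 CPM (median 14.18 CPM), and Mgp from 4.594 to 18.45 CPM (median 9.721 CPM). Igf2 ran from 15.45 to 60.6 CPM with a median of 37.55 CPM. Slc6a13, a plasma membrane transporter of GABA and taurine, ran from 2.445 to 10.38 CPM with a median of 6.406 CPM. Counting error was 1.12% of the variance of Igf2 and 2.97% of that of Aebp1. Gsg1l female replicate 16 was the lowest library for 8 of the 10 genes, and Gsg1l female replicate 14 was the lowest for Col1a2 and Col3a1.

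**Figure D1:**
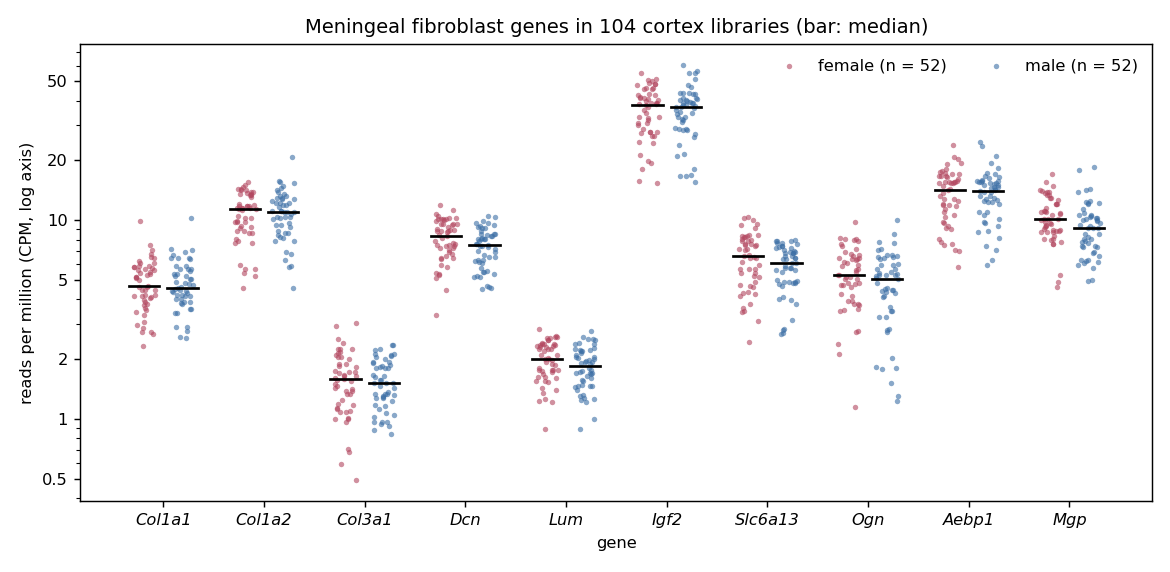
CPM (log axis) of each of the 10 genes in all libraries, 52 female on the left and 52 male on the right of each pair, with a bar at the median. The points of the 2 sexes overlap over most of their range for every gene, and Ogn has the longest lower tail, down to 1.148 CPM.

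This spread was wide for genes of these levels. After line and sex means were removed, the SD on the log2 CPM scale was 0.342 for Dcn and 0.344 for Lum at the low end and 0.595 for Ogn at the high end, against a median of 0.118 over all 15723 genes tested. Among genes whose mean lay within 0.5 on the log2 CPM scale, the members' SD stood at percentiles from 86.8 (Lum, 922 genes) to 99.8 (Igf2, 2464 genes). Besides Lum, Col1a1 (98.4), Dcn (98.2) and Col3a1 (94.8) stood below percentile 99, and the other 6 genes above it. The shared spread was known when the genes were put together, so these percentiles describe the set and are not independent support. Line and sex together took up 11.1% (Col1a1) to 22.2% (Ogn) of a member's variance, against a median of 16.5% over all genes. These shares are not adjusted for the 14 coefficients of the model, which take up part of the variance even in random values.

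Sex accounted for little of the spread, and no member passed the test between females and males. Dcn had 3.334, 8.353 and 11.93 CPM as lowest, median and highest of the females, against 4.509, 7.487 and 10.47 CPM in the males. Mgp had 4.594, 10.13 and 17.04 CPM in the females, against 4.963, 9.17 and 18.45 CPM in the males. These were the members with the lowest p, and the sexes overlapped over nearly their whole range. On the log2 scale, female over male, Dcn differed by 0.15 ± 0.06 (SE) and Mgp by 0.16 ± 0.08. With edgeR's quasi-likelihood test and Benjamini-Hochberg adjustment over 15723 genes, the adjusted p was 0.138 for Dcn and 0.176 for Mgp. The female mean was the higher in 8 of 13 lines for Dcn and in 10 of 13 for Mgp.

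The other proteoglycans and the transporter leaned the same way without passing. Ogn averaged 5.407 ± 1.769 CPM in females and 4.858 ± 1.942 CPM in males (SD, n = 52 each). Slc6a13 averaged 6.519 ± 2.002 CPM in females and 5.862 ± 1.518 CPM in males. Lum averaged 1.993 ± 0.446 CPM in females and 1.846 ± 0.440 CPM in males. Their log2 differences were 0.16 ± 0.10 for Ogn, 0.14 ± 0.08 for Slc6a13 and 0.11 ± 0.07 for Lum, with adjusted p of 0.385, 0.28 and 0.348 by the same edgeR test. The 3 collagens, Igf2 and Aebp1 lay within 0.04 of 0 on the log2 scale. Igf2 averaged 36.02 ± 10.06 CPM in females and 35.86 ± 10.52 CPM in males, with a 95% interval of the log2 difference from -0.15 to 0.18. For Aebp1 that interval ran from -0.17 to 0.15 and for Col1a1 from -0.15 to 0.16. Over all genes tested, 8.57% were called between the sexes. Of the members 0 were called by edgeR, and 2, Dcn and Mgp, had an unadjusted p under 0.05. DESeq2 and limma on log2(FPKM + 0.1) also called 0 of the 10. The median log2 difference was 0.07 over the members and 0.0002 over all genes.

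Lines overlapped in every member, and the same few lines held the extremes. Morf4l1 had the highest mean for 9 genes and Hrk for Igf2, while Ppp1ca had the lowest for 9 genes and Zswim6 for Lum. Igf2 averaged 42.5 ± 6.20 CPM in Hrk, 42.4 ± 9.84 in Morf4l1, 38.1 ± 8.65 in Arpp19, 37.9 ± 12 in Rgs9 and 35.8 ± 10.1 CPM in Rasgef1a (SD, n = 8 each). It averaged 35.8 ± 5.84 CPM in Dach1, 35.6 ± 16.7 in Gsg1l, 35.6 ± 12.1 in Tbc1d8, 34.3 ± 10 in Ece2 and 33.8 ± 8.59 CPM in Pcdh20. Kdm3b at 33.2 ± 6.54, Zswim6 at 33.1 ± 11.7 and Ppp1ca at 29.4 ± 9.77 CPM were the lowest. No neighbours in this order were as far apart as 1 SD. Over the 10 genes that happened once, for 1 gap among the lines of Dcn, and the ranges of the highest and the lowest line overlapped for each gene.

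In Morf4l1, all 10 genes lay above the mean of the other 12 lines, with log2 differences from 0.23 (Dcn) to 0.40 (Col1a1) and a median of 0.36. Col1a1 averaged 6.224 ± 1.893 CPM in Morf4l1, against 4.105 ± 0.956 CPM in Ppp1ca, the lowest line. Ogn averaged 6.391 ± 1.899 CPM in Morf4l1, against 3.715 ± 1.751 CPM in Ppp1ca. In Morf4l1 the unadjusted p was under 0.05 for 8 of the 10 genes, all but Igf2 and Aebp1. After Benjamini-Hochberg adjustment over all genes, the edgeR test gave its lowest p, 0.285, for Col1a1.

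In Ppp1ca, all 10 genes lay below the other 12 lines, from -0.14 (Lum) to -0.49 (Ogn) with a median of -0.30, and 6 had an unadjusted p under 0.05. Kdm3b was also below for all 10 genes (median -0.24) and Hrk above for all 10 (median 0.17). With the choroid plexus, endothelium, smooth muscle and erythroid scores as covariates, Hrk was above for 5 genes and below for 5 (median 0.04), and Rasgef1a, with 4 genes above and 6 below without them (median -0.02), was below for all 10 (median -0.22). The choroid plexus score was highest in a library of that line, Rasgef1a male replicate 37 (2.97 with line and sex means removed), and the erythroid score held Alas2 alone. The part of that library in the Rasgef1a shift was not tested. Because the 10 genes move together within a library, 10 of 10 in a direction is not 10 separate pieces of evidence. No member was called in any line, that is 0 of 130 pairs of a member and a line, nor by DESeq2 or limma.

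The background of these line contrasts differed widely. Tbc1d8 differed from the other 12 in 12.4% of all genes tested and Gsg1l in 10.4%. The members' median log2 difference was -0.02 in Tbc1d8 and -0.03 in Gsg1l. The share called was 0.165% in Dach1, 0.108% in Rasgef1a, 0.0445% in Rgs9, 0.0318% in Morf4l1, 0.0127% in Ece2 and in Pcdh20 and 0.00636% in Arpp19, and 0% in Hrk, Kdm3b, Ppp1ca and Zswim6. A share of 0 of 10 is therefore close to the background in 11 of the lines. In Tbc1d8 and Gsg1l, 10 genes are too few to set 0 apart from 12.4% or 10.4%. In the F-test over all lines 9.6% of genes were called and 0 of the 10 members, with adjusted p from 0.274 (Ogn) to 0.705 (Igf2) and no unadjusted p under 0.05. The interaction of sex and line called 0.0382% of all genes and no member, with an adjusted p of 1 for each and no unadjusted p under 0.05. DESeq2 and limma likewise called no member in either test.

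**Figure D2:**
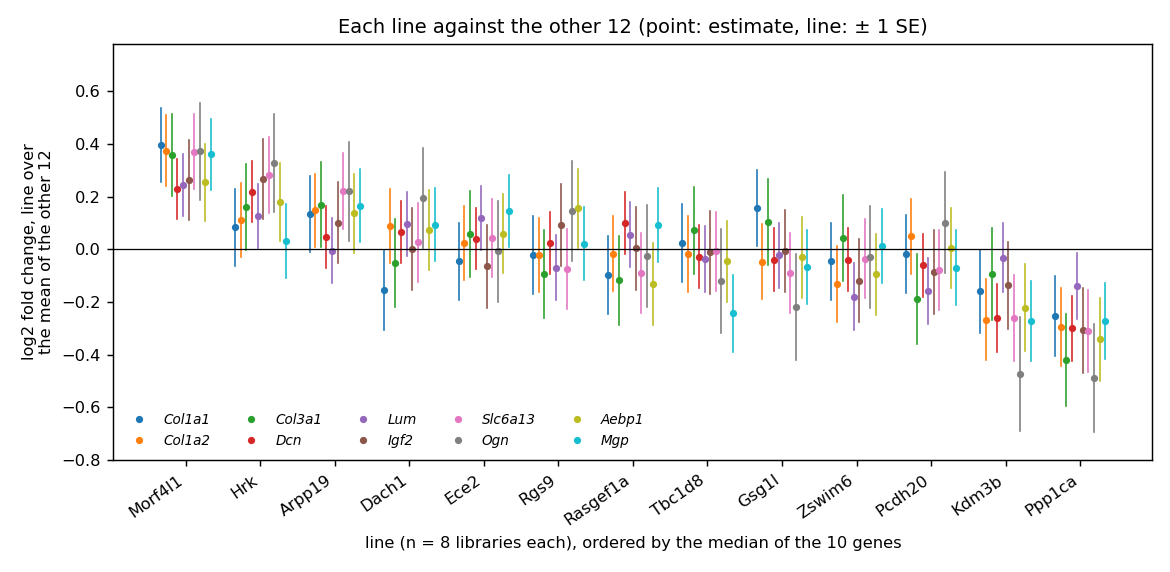
Log2 fold change of each of the 10 genes in each line over the mean of the other 12 lines (n = 8 libraries a line, bars ± 1 SE), lines ordered by the median of the genes. Morf4l1 is the highest with a median of 0.36 and Ppp1ca the lowest with a median of -0.30, and no point passed the test.

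Plate 2 held 8 libraries and plate 1 held 96. The members' means differed by less than their SD. Igf2 averaged 37.19 ± 10.58 CPM on plate 2 and 35.84 ± 10.27 CPM on plate 1. Lum averaged 1.819 ± 0.494 CPM on plate 2 and 1.928 ± 0.444 CPM on plate 1. The log2 differences, plate 2 over plate 1, ran from -0.13 (Lum) to 0.09 (Col1a1). Of all genes 0.242% were called and of the members 0, none with an unadjusted p under 0.05 and none by DESeq2 or limma.

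What the members shared was their movement from library to library. With line and sex means removed, all 45 pairs of genes correlated positively over all libraries, with Pearson's r from 0.487 (Lum and Mgp) to 0.920 (Igf2 and Aebp1) and a median of 0.779. Spearman's rho ran from 0.438 to 0.920. Without the 2 libraries farthest from the median of the first gene of the pair, r ran from 0.423 to 0.909. The largest p over the 45 pairs, by permutation with 100000 draws and Benjamini-Hochberg adjustment, was 1e-05 for Pearson's r, the smallest that the draws can give, and 2e-05 for Spearman's rho. The shared spread was known when the genes were put together, so these p-values describe the set and do not stand as independent support for it. The leading principal component held 79.4% of the standardised variance of the 10 genes and the next 5.73%.

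**Figure D3:**
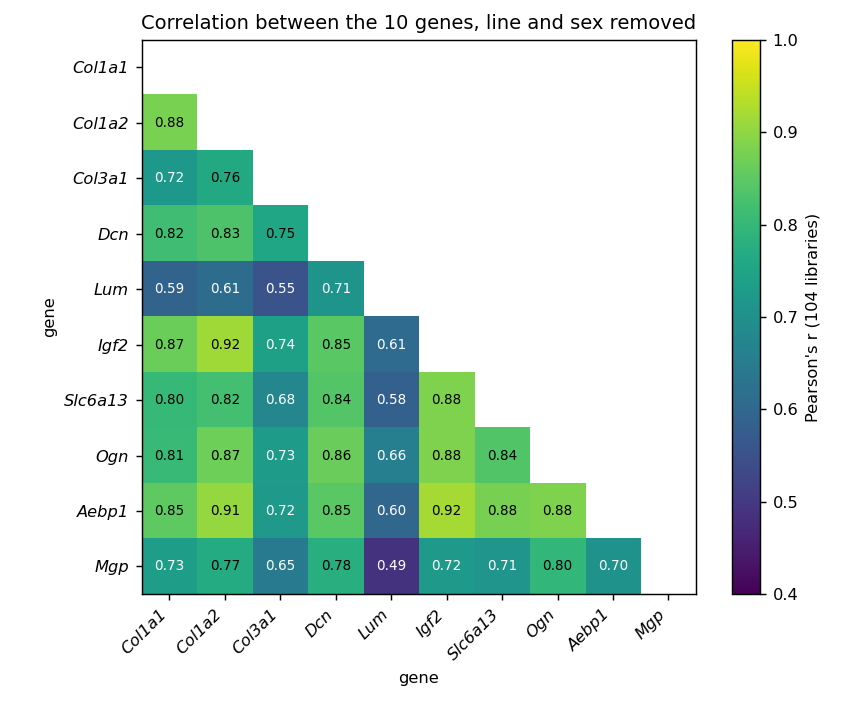
Pearson's r between the 10 genes over all libraries on the log2 CPM scale with line and sex means removed. Igf2, Aebp1 and Col1a2 form the highest values, up to 0.920, and the row and column of Lum the lowest, down to 0.487.

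The tightest pairs joined Igf2, a growth factor, to Aebp1 and Col1a2, genes of connective tissue. Igf2, Aebp1 and Col1a2 correlated with one another at 0.905 to 0.920, and Slc6a13, the only transporter, with Igf2 at 0.884 and with Aebp1 at 0.876. The 2 chains of type I collagen reached 0.880, and Col3a1 stood lower with both, at 0.721 for Col1a1 and 0.764 for Col1a2. Dcn and Lum, neighbours on chromosome 10, reached 0.710, the highest r of Lum with any member. With the rest Lum ran from 0.487 (Mgp) to 0.659 (Ogn). Dcn with Ogn, on another chromosome, reached 0.862, but counting error was 35.9% of the variance of Lum and 5.14% of that of Ogn, so these 2 values are not alike. The CPM ratio of Col1a2 to Col1a1 varied 2.03-fold over the libraries and that of Igf2 to Aebp1 2.37-fold, less than any single member did. The ratio of Slc6a13 to Aebp1 varied 2.04-fold, Dcn to Lum 2.62-fold and Col3a1 to Col1a1 2.88-fold. That of Mgp to Col1a2 varied 3.28-fold, more than Lum alone (3.21-fold).

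Set against the mean of the other 9, each gene followed it with r from 0.660 (Lum) to 0.934 (Igf2). Ogn moved the most for a given shift of the others, by 1.49 on the log2 scale for each 1.00 of their mean, and Lum the least, by 0.56. The slopes for the collagens were 0.95 for Col1a1, 1.01 for Col1a2 and 0.93 for Col3a1. Lum and Col3a1, with the lowest shares shared with the other 9 (43.5% and 61.0% of variance), were also the 2 genes with the fewest reads. Mgp was the exception among the well-counted genes, with 62.5%.

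The pattern was present in both sexes, on both plates and in most lines. The median r of the 45 pairs was 0.823 among the 52 females and 0.718 among the 52 males, with every pair positive in both. It was 0.886 over the 8 libraries of plate 2, which came from 6 lines, and 0.771 within plate 1. The plate 2 value includes Gsg1l female replicate 16, the lowest library of all, which can weigh heavily among 8, and it was not repeated without that library. Within single lines of 8 libraries the median r ran from 0.420 in Hrk to 0.927 in Tbc1d8, and in 8 of the 13 lines all 45 pairs were positive. Hrk was also the line with the least spread in the mean of the genes (SD 0.139 on the log2 scale) and Gsg1l that with the most (SD 0.716).

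Taking the mean of the 10 genes on the log2 CPM scale, less its line and sex means, as the level of the group in a library, the levels ran from -1.03 to 0.70, a ratio of 3.33. All 10 genes were above their expected level in 22 libraries and all 10 below it in 19. The highest library was Gsg1l male replicate 14 (0.70), where Igf2 reached 56.7 CPM and Ogn 7.81 CPM. Zswim6 female replicate 50 (0.62) held 55.3 CPM of Igf2 and 10.4 CPM of Slc6a13. Its Lum, at 1.76 CPM, was only at rank 53 with line and sex means removed, the scale of all ranks given here. Gsg1l female replicate 15 (0.62) was the highest of all in both type I collagen chains for its line and sex, with 9.88 CPM of Col1a1 and 15.5 CPM of Col1a2, and at rank 23 in Slc6a13.

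The lowest library was Gsg1l female replicate 16 (-1.03), the only library of its line on plate 2, with 2.33 CPM of Col1a1, 1.15 CPM of Ogn and 3.33 CPM of Dcn. Gsg1l male replicate 15 (-0.77) held 1.24 CPM of Ogn and 0.893 CPM of Lum. Ece2 male replicate 12 (-0.77) held 15.6 CPM of Igf2 and 4.58 CPM of Col1a2. Its Mgp, at 8.57 CPM, was at rank 74 with line and sex means removed. With line and sex means removed, both ends thus held libraries of Gsg1l, whose 8 libraries split into 5 above (0.37 to 0.70) and 3 below (-0.74 to -1.03). The 3 low libraries also lower the line mean that is taken off the other 5. With line and sex means kept, Morf4l1 male replicate 28 was the highest library. On that scale the top libraries of Morf4l1 (3.48), Zswim6 (3.28) and Tbc1d8 (3.26) all lay above that of Gsg1l (3.25). None of the 6 libraries at the ends was among the 3 that went against their sex label, and none had the fewest reads. Depth moved little with the group: over all libraries its level correlated with log2 total reads at -0.070 and, without the library of fewest reads, at 0.139.

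**Figure D4:**
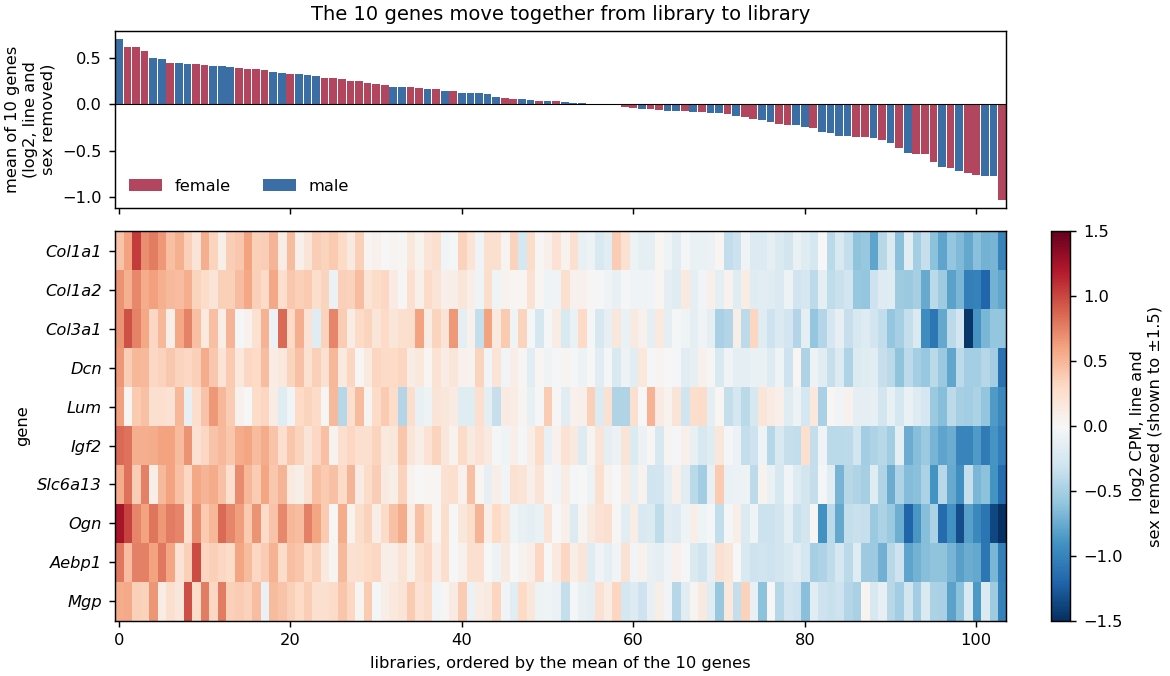
Upper panel: mean of the 10 genes per library (log2 CPM with line and sex means removed), libraries in falling order and coloured by sex. Lower panel: the same measure for each gene, in which the colours change together from left to right, most strongly for Ogn and least for Lum.

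Genes outside the group followed it closely. By Pearson's r with the mean of the 10 genes over all libraries, the 10 most alike among 13710 genes whose log2 CPM averaged 0 or more were Fmod (0.950), Ptgds (0.946), Slc22a6 (0.937), Serping1 (0.934), Slc13a4 (0.931), Pcolce (0.909), Aldh1a2 (0.906), Islr (0.905), Bgn (0.900) and Bmp6 (0.895). Fmod and Bgn are further small leucine-rich proteoglycans, Pcolce enhances the trimming of procollagen, Slc22a6 and Slc13a4 carry organic anions and sulfate, Aldh1a2 makes retinoic acid and Ptgds makes prostaglandin D. Ptgds was by far the most abundant of them, at 439 FPKM on average and 136 to 583 CPM, and oligodendrocytes make it as well as meninges. In all, 163 of the 13710 genes (1.19%) had r over 0.5, 34 over 0.8 and none under -0.5, with a median of -0.017. The lowest was Ano4 at -0.447.

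Of 39 further meningeal fibroblast and arachnoid genes tested, 27 had r over 0.5 with the group, with a median of 0.749, and their mean correlated with that of the 10 genes at 0.975. This list was chosen with earlier results of these data known, so its likeness to the group is not independent support. Fmod, Pcolce, Slc6a20a and Igfbp6 are on this list and on 1 of the next each. Igfbp6, the binding protein that prefers Igf2, was at 0.230 and Col5a1, a minor fibrillar chain, at -0.112, the lowest of the list. Between the sexes, 0 of the 39 were higher and 1 lower in females. That gene was Col14a1, a fibril-associated collagen, with 1.887 ± 0.363 CPM in females and 2.114 ± 0.482 CPM in males, a log2 difference of -0.17 ± 0.05 and an adjusted p of 0.0341 by the same edgeR test. It was also the only one of the list called between lines (adjusted p = 0.037).

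Among genes that work with the members' products, few single genes had r over 0.5, while the means of 4 of the 5 lists did. Of 23 genes for processing and cross-linking collagen, Pcolce was the only one over 0.5 and the median r was 0.153, and the mean of the list was at 0.767. The general folding enzymes P4hb and Ppib, at 34.8 and 71.4 FPKM, were at 0.110 and -0.003, while the collagen chaperone Serpinh1 was at 0.485. Of 8 other small leucine-rich proteoglycans, 3 were over 0.5, Fmod, Bgn and Omd (0.773), and the mean of the list was at 0.868. Of 6 collagen receptors, the discoidin receptor Ddr2 alone was over 0.5, at 0.823, and the mean was at 0.542. In females, Bmp1, the protease that trims procollagen, was 0.12 ± 0.02 lower on the log2 scale (adjusted p = 0.000155), Ecm2 among the proteoglycans 0.15 ± 0.04 higher (adjusted p = 0.0164) and the receptor subunit Itga11 0.31 ± 0.10 lower (1.12 ± 0.40 CPM in females, 1.42 ± 0.54 CPM in males, adjusted p = 0.0237). Ddr2 was 0.13 ± 0.04 higher in females on the log2 scale (14.37 ± 2.2 CPM in females, 13.16 ± 1.94 CPM in males, adjusted p = 0.0247).

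Of 13 genes of the insulin-like growth factor system, Igfbp2 alone was over 0.5, at 0.551, the receptors Igf1r and Igf2r were at 0.030 and -0.019, and the mean of the list was at 0.344. Igfbp2 averaged 26.51 ± 3.80 CPM in females and 23.94 ± 3.32 CPM in males, a log2 difference of 0.14 ± 0.04 with an adjusted p of 0.00862 by the same edgeR test. Of 7 transporters related to Slc6a13, Slc6a20a (0.877), a proline transporter, and Slc6a12 (0.543) were over 0.5, and the mean of the list was at 0.703. The astrocytic GABA transporter Slc6a11 was at -0.267. Slc6a12 was higher in females, with 0.489 ± 0.233 CPM in females and 0.377 ± 0.178 CPM in males (0.39 ± 0.13, adjusted p = 0.0417). Of the 7 transporters, 1 was called higher and 1 lower in females, and the lower one is not named here. Over these 5 lists 12.3% of 57 genes were called between the sexes, against 8.57% of all genes, and 10.5% between lines, against 9.6%. Leprel2, Bmp1, Itga10, Ddr2 and Slc32a1 were among those called between lines.

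Markers of other cells at the surface of the brain moved with the group in part. Of 8 border macrophage genes, 7 had r over 0.5, led by Mrc1 (0.858) and F13a1 (0.792), and their mean correlated with the group at 0.858. They summed to 1.42 to 6.43 FPKM a library. Of these 8 genes, Cd209f alone differed between the sexes, with 0.465 ± 0.208 CPM in females and 0.325 ± 0.159 CPM in males (log2 difference 0.51 ± 0.12, adjusted p = 0.00381). Of 10 choroid plexus genes, Kcnj13 (0.883) alone was over 0.5, and Ttr, the defining product of that tissue, was at 0.135. The mean of that list correlated with the group at 0.446, and at 0.596 without Rasgef1a male replicate 37, which held 286 CPM of Ttr against 20.1 CPM in the next library, Arpp19 male replicate 1, and a median of 0.386 CPM. That library was also the highest of all for Mgp, at 18.45 CPM. By sex the choroid plexus value was 0.762 in females and 0.317 in males, and that of the border macrophages 0.836 in females and 0.847 in males. The male choroid plexus value includes Rasgef1a male replicate 37 and Arpp19 male replicate 1, the libraries with the most Ttr, and no difference by sex was tested.

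Markers of vessels and of the brain's own cells had means that correlated with the group at 0.5 or less. The mean of 12 endothelial genes correlated with it at 0.279, with none over 0.5, that of 8 smooth muscle genes at 0.5, and that of 10 pericyte genes at 0.491, where Anpep (0.786) and Vtn (0.672), also made by fibroblasts, were over 0.5. Astrocytes were at 0.401, with Gfap, which is high in the astrocytes under the pia, at 0.535. Oligodendrocyte genes went the other way at -0.328, led by Mog at -0.355, and neurons were at -0.190, interneurons at -0.172, microglia at 0.081, ependymal cells at -0.106 and Schwann cells at -0.046. Of the erythroid list Alas2 alone was tested (-0.054), as the haemoglobin genes held 0 to 12 reads in all libraries together. Counting each gene once over all lists of cell types other than meningeal ones, 12 of 98 genes (12.2%) were called between the sexes by edgeR, against 8.57% of all genes. In females 1 of 10 choroid plexus genes was higher (Enpp2) and 1 lower (Ttr, whose male mean holds the 286 CPM of Rasgef1a male replicate 37), 1 of 12 endothelial genes was higher (Abcb1a), 2 of 10 pericyte genes were lower (Pdgfrb and Higd1b), 2 of 8 oligodendrocyte genes were higher (Mog and Cldn11), 1 of 8 microglial genes was higher (Fcrls), 2 of 8 neuronal genes were lower (Rbfox3 and Slc17a7) and 1 of 4 Schwann cell genes was higher (Cldn19). None of the smooth muscle, astrocyte, interneuron and ependymal genes was called between the sexes. Between lines 9 of the 98 genes were called (9.18%, against 9.6% of all genes), namely Ttr, Clic6, F5, Higd1b, Tpm2, Syt1, Camk2a, Slc17a7 and Slc32a1, and for sex by line Ttr alone. The line and the sex by line call of Ttr also include the 286 CPM of Rasgef1a male replicate 37. Among the lists of cell types, those whose means correlated most with the group were meningeal fibroblasts and border macrophages, and their part in the spread of the 10 genes was not tested. All lists were chosen with earlier results of these data known, so this order is not independent support either.

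**Figure D5:**
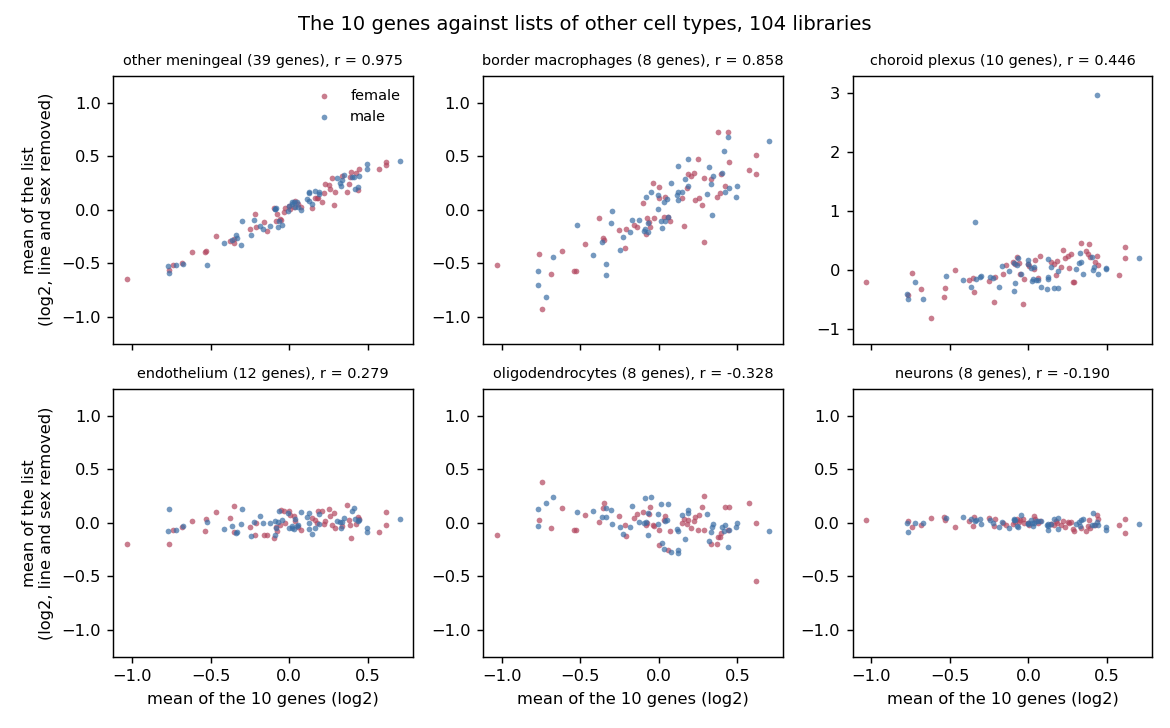
Mean of 6 lists of marker genes against the mean of the 10 genes in each library (log2 CPM with line and sex means removed, coloured by sex). The other meningeal genes follow a narrow band (r = 0.975), border macrophages a wider one (0.858), endothelium and choroid plexus a loose one, and oligodendrocytes and neurons slope slightly down (-0.328 and -0.190). In the choroid plexus panel, which has a taller axis, Rasgef1a male replicate 37 lies alone at 2.97.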

How the data were processed

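RNA was taken from dissected cerebral cortex and made into stranded libraries with the Illumina TruSeq protocol, per the labels' protocols. Reads were aligned with STAR 2.7.3a and counted with HTSeq 0.10.0 on GRCm38 (mm10), per the submitters' processing notes. The strand setting of the counting is not given in the sources used here. The deposited count tables hold whole reads per gene, not normalized, for RefSeq and for Ensembl genes, and the deposited FPKM tables hold the authors' values per length and depth.

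From the RefSeq counts, CPM was computed with TMM factors (0.985 to 1.03). Log2 CPM used a prior count of 2. Sex, line, line by sex and plate were tested with edgeR 4.0.16 (quasi-likelihood F-test, R 4.3.3) on all libraries after filterByExpr, with Benjamini-Hochberg adjustment over all genes tested and a threshold of 0.05. Correlations used log2 CPM with line and sex means removed (numpy 2.4.6). Counting error was taken as the mean of 1/count on the log2 scale over the residual variance. Alternatives used DESeq2 1.42.0, limma 3.58.1 on log2(FPKM + 0.1) or log2(FPKM + 1), other filters and fewer libraries. The scripts were tested on simulated data. Promoters are from RefSeq (GRCm38.p6), which gave windows for 6 of the 10 members.

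The members and lists were chosen with earlier results of these data known. All 10 members are named. Of the other lists, the text names called genes (at most 4) and some others, chosen after their values were seen, and 1 called gene is not reported here. The most alike genes are the 10 with the highest r, and the libraries at the ends are the 3 highest and 3 lowest. No source says that libraries of a group came from separate litters or days, so p-values measure the spread between these libraries.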

Additional observations from a re-analysis of the deposited data

Results flagged for a closer look

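Within each group of 4 libraries of a line and sex, the highest or lowest library was set against the gap to its nearest neighbour, for the 10 genes and their mean. Of 286 such groups 21 stood apart (7.34%), where chance flags about 1 in 20, and the genes are not independent. All values are log2 CPM, set against the range of the other 3 libraries of the group where given.

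Col1a2 stood apart most often. It was low in Arpp19 female replicate 1 (2.96, others 3.83 to 3.86), Dach1 female replicate 8 (2.96), Morf4l1 female replicate 27 (3.24), Rasgef1a female replicate 39 (2.99), a library against its sex label, and Zswim6 male replicate 49 (2.77). It was high in Morf4l1 male replicate 28 (4.38, others 3.62 to 3.71), where Igf2 was high too (5.92, others 5.25 to 5.33). Igf2 was also high in Rasgef1a male replicate 37 (5.78), the library with the most Ttr, and low in Tbc1d8 male replicate 48 (4.07, others 5.11 to 5.25).

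Col3a1 was low in Rgs9 female replicate 43 (-0.37, others 0.70 to 0.86), also against its sex label, and high in Zswim6 female replicate 50 (1.60). Lum was low in Ece2 male replicate 12 (0.42) and in Gsg1l male replicate 15 (-0.054, others 1.29 to 1.41), where Slc6a13 was low too (1.46, others 2.79 to 2.91). Ogn was low in Morf4l1 female replicate 27 (1.86). Mgp was low in Tbc1d8 female replicate 47 (2.32) and high in Ppp1ca male replicate 34 (3.37). Dcn was high in Hrk female replicate 19 (3.35) and Aebp1 low in Hrk male replicate 18 (3.81), the line with the least spread. The mean of the 10 genes was low in Arpp19 female replicate 1 (2.54, others 3.09 to 3.18) and high in Dach1 male replicate 5 (3.14, others 2.69 to 2.76).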

How the results depend on the processing

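No member was called for sex, line, sex by line, plate or any single line under any alternative run: size factors, no filter or a stricter one, DESeq2, Ensembl counts, limma on FPKM, plate 1 only, fewer libraries, or the choroid plexus, endothelium, smooth muscle and erythroid scores as covariates. The log2 differences between the sexes kept their sign in all 29 fits for Dcn (0.10 to 0.18, adjusted p from 0.0659 to 0.407), Mgp (0.11 to 0.22, 0.0776 to 0.543), Ogn, Slc6a13 and Lum. Those near 0 changed sign: Col1a1 was at -0.008 and -0.003 by limma with a pseudocount of 0.1 and 1, and Col1a2 and Aebp1 were at 0.001 and 0.01 without the 3 libraries against the sex label and at 0.009 and 0.03 with the scores as covariates, and Aebp1 at 0.001 by DESeq2. Between the plates, Igf2 was at 0.002 and 0.004 by limma, and Aebp1 at -0.01 without those 3 libraries and at -0.037 with the covariates. Leaving out libraries or lines, the sex differences ran from -0.054 to 0.048 for Col1a1, from -0.068 to 0.005 for Col1a2, from -0.025 to 0.092 for Col3a1, from -0.05 to 0.061 for Igf2 and from -0.064 to 0.023 for Aebp1. The plate differences ran from -0.129 to 0.151 for Aebp1, from -0.126 to 0.043 for Col1a2, from -0.184 to 0.026 for Dcn, from -0.114 to 0.128 for Igf2, from -0.267 to 0.111 for Lum and from -0.254 to 0.061 for Slc6a13. The median of the members ran from 0.215 to 0.4 in Morf4l1 from -0.412 to -0.12 in Ppp1ca, from -0.281 to -0.116 in Kdm3b, from 0.038 to 0.281 in Hrk and from -0.222 to 0.073 in Rasgef1a over 15 fits, and the cause was not tested.

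Replicate numbers are shared by a female and a male of a line, but they did not pair the libraries: the deviations of same-numbered libraries correlated with a median of -0.114 over 52 pairs, 9 of them over 0.1. With the number as a replicate block, 0 members and 1359 genes were called between the sexes, and Col1a1 was at -0.011.

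Over all genes, the calls between the sexes ran from 477 to 1445 over the alternatives (1347 in the test reported), between lines from 500 to 1961 (1509), for sex by line from 0 to 6 (6) and between plates from 4 to 172 (38). The fits that left out a library of each group gave the lowest counts, with fewer samples.

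The median r of the 45 pairs stayed between 0.718 and 0.823 in the settings over both sexes, within 1 sex and within plate 1, with 0.765 to 0.791 when a line or a library of each group was left out and 0.762 without the 3 highest and 3 lowest libraries. Of the libraries at the ends, 1 of the highest 3 was shared when line and sex means were kept, and 1 of the lowest 3 with the median over members. Correlations of the list means with the group changed sign by sex for interneurons (-0.458 in females, 0.087 in males), microglia (0.225 in females, -0.138 in males) and Schwann cells (0.162 in females, -0.139 in males). They also moved for smooth muscle (0.676 in females, 0.336 in males) and the insulin-like growth factor system (0.119 in females, 0.519 in males), and no difference by sex was tested. The settings within a sex, on plate 2, without end libraries and without Rasgef1a male replicate 37 were chosen after seeing the data. The shallowest library, Kdm3b female replicate 22, held 7 reads of Col3a1, 8 of Lum and 130 of Igf2, which limits what it can show for the first 2.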
